A study of Danio rerio with 12 samples.

Results

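MicroRNA levels were compared between zebrafish embryos of 60 and 36 hours post fertilisation (hpf) that had received the vehicle DMSO and no TCDD, which gives the change during normal development from the pharyngula into the hatching period. The comparison rested on 6 of the 12 libraries of the series, 3 labelled 36 hpf DMSO and 3 labelled 60 hpf DMSO, and on all miRNA rows of the deposited count tables. All embryos were of the TL wild type strain and were taken whole. The other 6 libraries came from embryos of the same strain and ages exposed to TCDD, a dioxin and ligand of the aryl hydrocarbon receptor. They are not among the libraries compared here, but share in the filter on low counts, the scaling and the estimate of spread. The sources used here do not give the dose or duration of the exposure. Whether the 3 libraries of a group were made from different clutches is not stated in the labels. The spread behind the p-values and SEs was estimated over all 12 libraries, those of TCDD embryos included. It covers only differences between replicate libraries, which may be technical. Hairpin copies of a mature miRNA with like counts were counted once, which gave 464 features, a feature being 1 arm of a miRNA hairpin. Of these, 410 were abundant enough to be tested. The 54 others had mean levels of at most 4.62 CPM, counts scaled to a common library size, in either DMSO group. A feature could pass this filter on low counts through its level at 1 age alone, where it is high.

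A microRNA is cut from a hairpin transcript, and 1 or both arms of the hairpin are loaded onto an Argonaute protein, where bases near the start of the miRNA (the seed) pair with target mRNAs and lower their translation and stability. miRNAs with the same seed form a family and can share targets, and hairpins that lie close together on a chromosome are often cut from a single transcript. In the zebrafish embryo, miR-430 clears maternal mRNA after the zygotic genome is switched on, the let-7 family accompanies the later exit from proliferation into differentiation, and many other families mark a tissue, such as miR-124 in neurons, miR-1 and miR-206 in muscle, and miR-122 in the liver. Names with a star in the deposited tables mark the arm called minor here, and the other arm is called major.

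The 36 hpf DMSO libraries held 648934, 1408510 and 3557670 miRNA counts and the 60 hpf DMSO libraries 3738502, 2374864 and 3223999. In the shallowest of these libraries 1 count amounted to 1.54 CPM, and in the deepest to 0.268 CPM. The first principal component of log2 CPM over the 6 libraries held 50.2% of the variance and separated both ages. The second held 18.97% and set 36 hpf DMSO replicate 3 (-15.9) apart from replicates 1 and 2 of that group (6.81 and 8.99). Replicates correlated at 0.931 to 0.949 at 36 hpf and at 0.958 to 0.97 at 60 hpf. Markers of the main tissues of an embryo were present at both ages. The muscle miRNA miR-206 had means of 27600 and 33220 CPM at 36 and 60 hpf, the epidermal miR-203b 75600 and 56730 CPM, the neuronal miR-124 831 and 1683 CPM, the erythroid miR-451 2816 and 3406 CPM, and the liver miRNA miR-122 61.5 and 322 CPM. In whole embryos, a change in the number of cells of a type and a change in the level per cell cannot be told apart.

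From 36 to 60 hpf some members of the let-7, miR-125, neuronal, sensory and liver groups were called higher, as were both arms of miR-190b. Called lower were the tested miR-430 features, both arms of miR-30a and 3 of 16 tested features of the miR-130, miR-301 and miR-454 group. edgeR's quasi-likelihood test called 75 of the 410 tested features (18.3%) at an adjusted p under 0.05. Of these, 52 were higher at 60 hpf (12.7% of features tested) and 23 lower (5.61%). The log2 fold changes of the higher calls ran from 0.89 to 5.77 (median 2.07), and those of the lower calls from -0.82 to -3.24 (median -1.60), while the median over all 410 features was 0.08. In all 75 calls the 3 libraries of 1 age did not overlap with those of the other, which was also true of 42.4% of all tested features. Higher calls held 28 major and 24 minor arms, and lower calls 9 major and 14 minor arms. The number of higher calls was 34 without 36 hpf DMSO replicate 1 and also 34 without replicate 2 of that group, and the number of lower calls was 14 without 60 hpf DMSO replicate 1 or replicate 2. With upper quartile scaling, which shifted the median of all features by -0.28 on the log2 scale, the test gave 36 higher and 30 lower calls. Scaling by total counts shifted the median by 0.12 and gave 59 and 20.

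**Figure D1:**
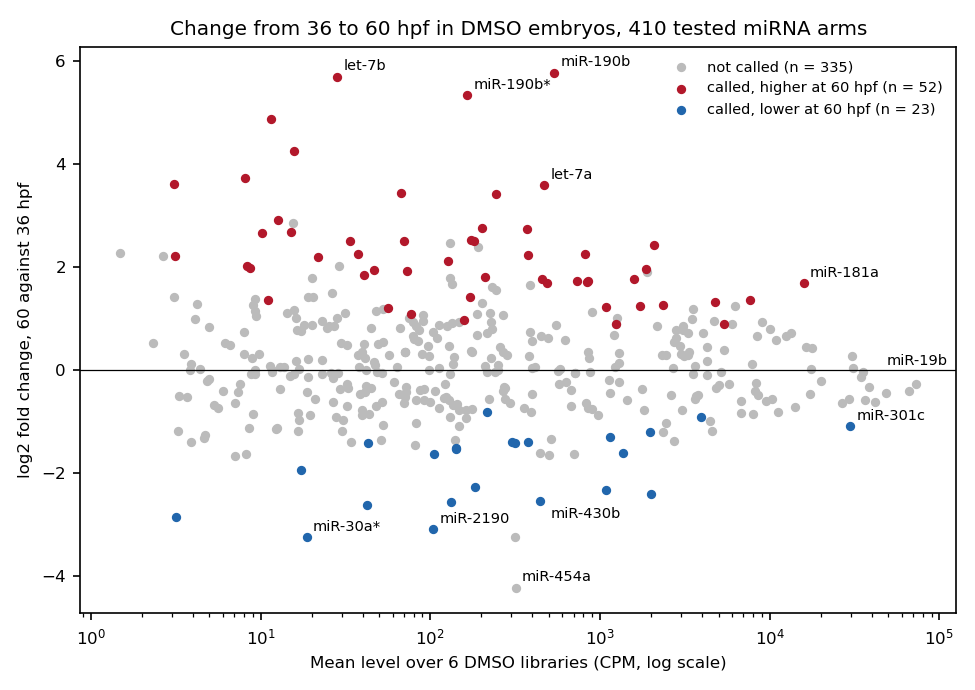
Log2 fold change from 36 to 60 hpf in DMSO embryos against the mean level over the 6 DMSO libraries (CPM, log scale), 1 point for each of 410 tested features. Red points (52) were called higher and blue points (23) lower by edgeR's quasi-likelihood test. The call of highest level is miR-301c, and the features of still higher level, such as miR-19b, were not called. It is the 1 called feature among the 12 that were in the 10 most abundant at either age.

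Among the most abundant miRNAs the first 3 kept their order, while others changed rank. miR-19b, miR-203b and miR-130b were the first 3 features by mean level at both ages, and of the 12 features that were among the 10 most abundant at either age 8 were so at both. miR-19b, of the miR-17-92 type clusters that promote proliferation, stood at 91330, 90410 and 58140 CPM at 36 hpf and at 78010, 68110 and 52710 CPM at 60 hpf. These values overlap (log2 fold change -0.27, SE 0.72, edgeR adjusted p = 0.865). Of the 12 features only miR-301c was called. It went from rank 7 at 36 hpf to rank 15 at 60 hpf. The 10 most abundant features of each library took 45.4%, 48.4% and 49.9% of its miRNA counts at 36 hpf and 40.5%, 41.1% and 37.5% at 60 hpf. The share was lower in each of the 60 hpf libraries (47.9% ± 2.29 against 39.7% ± 1.91, SD, n = 3 each; two-sided exact permutation p = 0.1, the smallest that 3 against 3 libraries can give). The difference of -8.23 percentage points became -4.31 where copies of a hairpin were summed, unless identical.

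The let-7 family, which in other animals and in cultured cells represses growth and pluripotency genes such as those of the Lin28 and Ras pathways, gave the most higher calls together with the neuronal list. Of 20 tested let-7 features 11 were called higher and 0 lower, against 12.7% of all tested features called higher, all 20 log2 fold changes were positive, and their median was 1.74. Called were 6 of 9 major arms and 5 of 11 minor arms. These numbers include let-7b, let-7b* and let-7h*, which had 7 or fewer counts in each DMSO library of 36 hpf. Such features can pass the filter on low counts through their level at 60 hpf alone. let-7d stood at 10.1, 8.02 and 15.6 CPM at 36 hpf and at 148, 136.7 and 87.6 CPM at 60 hpf. All 3 libraries of 60 hpf lay above all 3 of 36 hpf, by at least 5.63-fold between the closest pair (log2 fold change 3.43, SE 0.37, edgeR adjusted p = 0.000385). let-7c stood at 50.4, 71.4 and 5.87 CPM at 36 hpf, the lowest value being that of replicate 3, and at 548, 500.5 and 289 CPM at 60 hpf (log2 fold change 3.41, SE 0.74, edgeR adjusted p = 0.00877). Without 36 hpf DMSO replicate 2 its log2 fold change was 4.06. let-7g was already the most abundant family member at 36 hpf, with 211.5, 148 and 331 CPM, and reached 850, 690 and 686 CPM at 60 hpf. Its groups did not overlap, and its increase (1.69 on the log2 scale, SE 0.32, edgeR adjusted p = 0.00433) was the smallest of the called major arms of the family. At 60 hpf the most abundant member was let-7a, at 1132, 865 and 609 CPM against 87.3, 87.4 and 43.5 CPM.

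let-7b was close to absent at 36 hpf, with 0, 3 and 2 counts in the 3 libraries, and had 302, 150 and 73 counts at 60 hpf. This is 63.1 times as many per miRNA count sequenced (95% exact interval 26.9 to 195.3, for counting error only). Its log2 fold change of 5.69 was 6.58 without 36 hpf DMSO replicate 2 and 5.09 without replicate 3. The other arm of its hairpin, let-7b*, rose with it, from 0, 2 and 7 to 107, 76 and 97 counts. let-7e (log2 fold change 0.86, SE 0.28, edgeR adjusted p = 0.0549) and let-7j (1.79, SE 0.71, edgeR adjusted p = 0.112) did not pass the test. The calls of let-7a, let-7a-3*, let-7b, let-7b*, let-7c, let-7d, let-7f and let-7g held with each of the 6 DMSO libraries left out in turn. let-7c* and let-7d* were lost in 4 of these 6 fits (largest edgeR adjusted p = 0.138 and 0.171), namely without 36 hpf DMSO replicates 1 or 2 or 60 hpf DMSO replicates 1 or 3, and let-7h* in all 6 (0.161). let-7 miRNAs differ by few bases, and the sources used here do not say how reads that fit more than 1 of them were counted, so the members may not be separate measurements.

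The miR-125, miR-99 and miR-100 group, whose hairpins lie next to let-7 hairpins in several places of the genome, gave 4 calls among 15 tested features, all higher, with a median log2 fold change of 0.72. These calls are 26.7% of the group, against 12.7% of all tested features called higher. miR-125a, a homologue of the timing miRNA lin-4 of Caenorhabditis elegans, stood at 742, 653 and 558 CPM at 36 hpf and at 2886, 3317 and 4270 CPM at 60 hpf. The closest libraries of the 2 ages differed 3.89-fold (log2 fold change 2.42, SE 0.38, edgeR adjusted p = 0.00167). miR-125b, of the same seed, stood at 4397, 4309 and 4215 CPM and then at 9328, 9846 and 13790 CPM. The replicates of 36 hpf had an SD of 91.0 CPM, all 3 libraries of 60 hpf lay above them, and the increase was called (log2 fold change 1.35, SE 0.24, edgeR adjusted p = 0.00354). miR-125b-1* (1.42) and miR-125a-2* (2.50) were called as well, the latter not without 36 hpf DMSO replicate 1 or replicate 2 (edgeR adjusted p up to 0.069). miR-99 (log2 fold change 0.72, SE 0.42) and miR-100 (1.18, SE 0.93) did not pass the test, and in both replicate 2 was the lowest library of 60 hpf, below all libraries of 36 hpf for miR-99 and among them for miR-100. miR-125c (0.65, SE 0.24, edgeR adjusted p = 0.0879) lay above its 36 hpf values in all 3 libraries of 60 hpf and did not pass either.

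**Figure D2:**
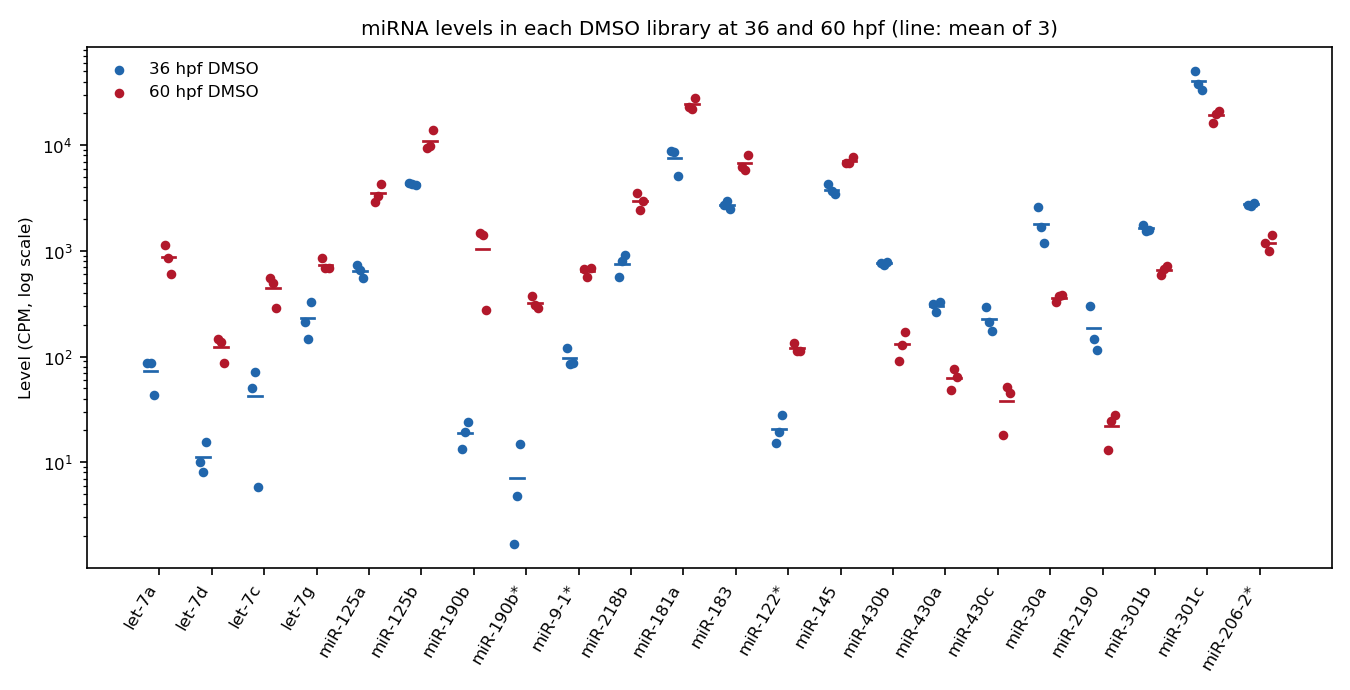
Levels of 22 miRNA arms in each of the 6 DMSO libraries (CPM, log scale), with 36 hpf in blue, 60 hpf in red and a line at the mean of 3 libraries. The miRNAs were selected from the calls, the blue and red points of each are separate, and miR-190b and let-7c show 1 library apart from its 2 replicates.

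miR-190b had the largest log2 fold change of all 410 features. miR-190b stood at 13.4, 19.2 and 24.1 CPM at 36 hpf and at 1482, 1398 and 276 CPM at 60 hpf. Replicate 3 of 60 hpf lay far below its 2 replicates and 11.5-fold above the highest library of 36 hpf. Without 60 hpf DMSO replicate 1 the log2 fold change was 5.45 in place of 5.77, and without replicate 3 it was 6.20. Its minor arm miR-190b* had 291 CPM in the same library, close to the 372 and 307 CPM of replicates 1 and 2, and stood at 1.68, 4.81 and 14.97 CPM at 36 hpf. The log2 fold change of miR-190b*, 5.33, was 6.44 without 36 hpf DMSO replicate 3. miR-190 itself was at 62.1, 76.2 and 25.3 CPM and then at 121, 180 and 8.76 CPM, so that the groups overlapped (log2 fold change 0.93, SE 0.90, edgeR adjusted p = 0.525).

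In the list of neuronal and neural precursor miRNAs, 11 of 36 tested features were called higher and 1 lower, and the median log2 fold change was 0.94. Over all tested features 12.7% were called higher. Upper quartile scaling gave 6 higher and 2 lower calls in this list. Minor arms of the hairpins of miR-9, a miRNA of neural progenitors, were among them. miR-9-1* stood at 119, 85.0 and 86.9 CPM and then at 672, 563 and 693 CPM, with tight replicates at both ages (log2 fold change 2.73, SE 0.32, edgeR adjusted p = 0.000385), and miR-9-7* rose by 2.76 (SE 0.57, edgeR adjusted p = 0.00726). The major arm miR-9 stood at 68.8, 48.9 and 4.99 CPM and then at 19.3, 82.5 and 561 CPM. Its libraries spread widely at both ages, the groups overlapped, and it was not called (edgeR adjusted p = 0.228). miR-218b, which is made in motor neurons, stood at 562, 796 and 913 CPM and then at 3525, 2430 and 2933 CPM, without overlap (log2 fold change 1.97, SE 0.37, edgeR adjusted p = 0.00433). miR-137, linked to neuronal maturation, stood at 354, 410 and 263 CPM and then at 1415, 1072 and 909 CPM, again without overlap (1.73, SE 0.39, edgeR adjusted p = 0.0114). The activity-regulated miR-132 and miR-212 hairpins gave 4 calls, miR-132 (2.26), miR-132-1* (1.98), miR-132-2* (2.20) and miR-212* (2.91). All 4 had fewer than 100 CPM in every DMSO library. miR-124-4* (1.81), miR-218a-1* (0.97) and miR-338 (0.89), the last an oligodendrocyte and neuron miRNA, completed the higher calls.

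The calls of miR-9-1*, miR-9-7*, miR-218b and miR-137 held with each DMSO library left out in turn. miR-132 was lost without 36 hpf DMSO replicate 1 and without 60 hpf DMSO replicate 3, and its log2 fold change was 1.66 without 36 hpf DMSO replicate 2 and 2.85 without replicate 3. miR-132-2* was lost without 36 hpf DMSO replicate 3 (edgeR adjusted p = 0.0604). miR-132-1* was lost without replicates 1 or 2 of either age, miR-218a-1* likewise, and miR-124-4* without replicates 1 or 2 of 36 hpf and 1 or 3 of 60 hpf (largest edgeR adjusted p = 0.103, 0.156 and 0.0998). miR-338 and miR-212* were lost whichever library was left out (up to 0.143 and 0.183), and the log2 fold change of miR-212* was 2.26 without 36 hpf DMSO replicate 3. The neuronal markers miR-124 (log2 fold change 1.02, SE 1.05), miR-128 (0.85, SE 0.31) and miR-138 (1.25, SE 0.70) had positive values and did not pass the test. The DMSO libraries of both ages did not overlap for miR-128 and miR-138 and overlapped for miR-124. Over the list, 27 log2 fold changes were positive and 9 negative. The 6 miR-153 features, 3 with positive and 3 with negative values, gave no call. The abundant miR-153b went from a mean of 11530 to 7628 CPM (-0.60), with overlapping groups. miR-218a went from a mean of 7313 to 12747 CPM (0.80) and was not called.

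The single lower call of the neuronal list was miR-219-3*, from a family whose major arm promotes oligodendrocyte maturation. It stood at 2771, 3344 and 3971 CPM at 36 hpf and at 644, 1115 and 140.8 CPM at 60 hpf. The groups were 2.49-fold apart at their closest, with a wide spread at 60 hpf (log2 fold change -2.41, SE 0.68, edgeR adjusted p = 0.0308). The call was lost without 36 hpf DMSO replicates 2 or 3 or 60 hpf DMSO replicate 1 (up to 0.0849). Its log2 fold change was -3.13 without 60 hpf DMSO replicate 2 and -1.95 without replicate 3. miR-219 stood at 876, 853 and 551 CPM and then at 358, 283 and 83.4 CPM, also without overlap, and did not pass the test (-1.65, SE 0.61, edgeR adjusted p = 0.0879).

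Sensory organ and retina miRNAs gave 7 higher and 0 lower calls among 20 tested features (median log2 fold change 0.92). The calls are 35.0% of the list, against 12.7% of all tested features called higher. They numbered 6 with DESeq2's scaling (RLE) and 5 with upper quartile scaling. miR-183, miR-96 and miR-182 are made together in hair cells and photoreceptors. miR-183 stood at 2702, 2962 and 2484 CPM and then at 6278, 5848 and 8135 CPM (log2 fold change 1.31, SE 0.36, edgeR adjusted p = 0.0245). The minor arm miR-183* stood at 182.9, 181.3 and 255 CPM and then at 773, 601 and 750 CPM (1.78, SE 0.25, edgeR adjusted p = 0.0009). Neither arm overlapped between the ages. miR-96 (1.22, SE 0.37) and miR-96* (2.50, SE 0.49) were called too, and miR-182 lay at 6314, 3871 and 2342 CPM and then at 7559, 7901 and 7941 CPM without overlap and without passing the test (0.90, SE 0.37, edgeR adjusted p = 0.121). miR-181a, abundant in the retina and in lymphocytes, stood at 8816, 8591 and 5142 CPM and then at 22830, 22120 and 27830 CPM. It was the most abundant feature among the higher calls and moved from rank 33 to rank 11 (log2 fold change 1.69, SE 0.39, edgeR adjusted p = 0.0133). miR-181b-2* (1.73) and the fish miRNA miR-726 (2.66) were the other calls. miR-204, the main miRNA of the lens and pigment epithelium, did not change beyond its spread (27950, 29400 and 33830 CPM against 30600, 24560 and 39070 CPM, log2 fold change 0.05, SE 0.24).

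Calls of miR-183*, miR-96* and miR-181b-2* held with each DMSO library left out. Those of miR-183 and miR-96 were lost in all 6 such fits (largest edgeR adjusted p = 0.106 and 0.132), and that of miR-181a without 36 hpf DMSO replicate 3 (0.0625). miR-726 was lost without 36 hpf DMSO replicates 1 or 2 or 60 hpf DMSO replicate 3 (up to 0.103). Its log2 fold change was 3.36 without 36 hpf DMSO replicate 3 and 2.25 without replicate 2.

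Liver and gut miRNAs gave 3 higher calls among 5 tested features, with a median log2 fold change of 1.84. Over all tested features 12.7% were called higher. The higher calls of this list numbered 2 with DESeq2's scaling (RLE) and 1 with upper quartile scaling. miR-122*, the minor arm of the hepatocyte miRNA, stood at 15.1, 19.3 and 27.9 CPM and then at 134, 113 and 112 CPM. The groups were 4.02-fold apart at their closest (log2 fold change 2.50, SE 0.33, edgeR adjusted p = 0.000541). The major arm miR-122 stood at 80.6, 16.04 and 87.8 CPM and then at 64.8, 525 and 378 CPM, so that 1 library of 60 hpf lay among those of 36 hpf, and it was not called (2.39, SE 1.28, edgeR adjusted p = 0.228). miR-192, of gut and liver epithelium, stood at 1069, 1000 and 1011 CPM and then at 2193, 2793 and 2317 CPM, with the groups 2.05-fold apart at their closest (1.25, SE 0.34, edgeR adjusted p = 0.0245). Its genomic neighbour miR-194a stood at 26.9, 11.2 and 15.9 CPM and then at 55.6, 80.1 and 53.5 CPM (1.84, SE 0.57, edgeR adjusted p = 0.0455). miR-192 was lost in 5 of the 6 fits that left out a DMSO library, all but the one without 60 hpf DMSO replicate 1, and miR-194a in all 6 (up to 0.107 and 0.178).

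In the smooth muscle list of miR-143 and miR-145, 1 of 3 tested features was called higher, against 12.7% of all tested features. With RLE or upper quartile scaling 0 were called. miR-145, which promotes differentiation of visceral and vascular smooth muscle, stood at 4256, 3704 and 3429 CPM and then at 6728, 6713 and 7672 CPM. The ages did not overlap, the increase was 0.89 on the log2 scale (SE 0.26, edgeR adjusted p = 0.0343), and the call was lost whichever DMSO library was left out (up to 0.149). Of 15 tested pancreas and endocrine features, miR-7a-1 and miR-7a-3 were called higher, a share of 13.3% close to the 12.7% of all tested features, and RLE and upper quartile scaling added 2 lower calls. miR-7a-1, of a family expressed in endocrine and neuroendocrine cells, stood at 562, 374 and 245 CPM and then at 1448, 1133 and 1292 CPM (1.72, SE 0.37, edgeR adjusted p = 0.00877). The family member miR-7b, more abundant than miR-7a-1 at 36 hpf, was not called. Its mean went from 888 to 869 CPM (log2 fold change -0.03). The islet miRNA miR-375 had a negative value and overlapping groups (-1.36, SE 0.75, edgeR adjusted p = 0.235).

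**Figure D3:**
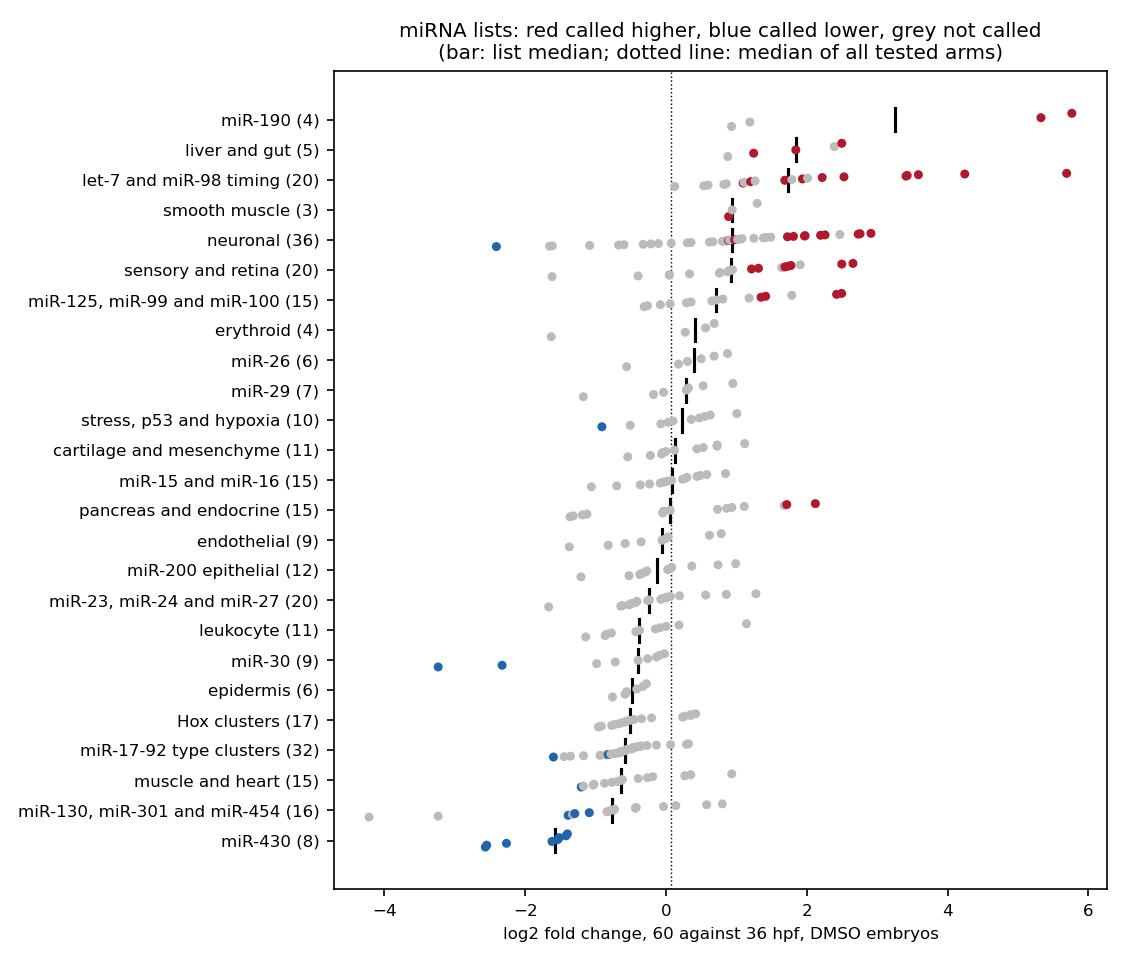
Log2 fold change from 36 to 60 hpf in DMSO embryos of the tested members of 25 lists (number of members in brackets), with calls higher in red, calls lower in blue and other members in grey. Bars mark the median of each list and the dotted line the median of all 410 tested features, 0.08, and the list medians run from -1.58 for miR-430 to 3.26 for miR-190.

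The miR-430 family was lower at 60 hpf. All 8 of its features that passed the filter on low counts were called lower, with a median log2 fold change of -1.58, and 5 further features were too rare to test. Over all tested features 5.61% were called lower. A feature can pass the filter through its level at 36 hpf alone. miR-430a stood at 314, 264 and 330 CPM at 36 hpf and at 48.3, 75.8 and 64.5 CPM at 60 hpf. Its groups were 3.48-fold apart at their closest (log2 fold change -2.27, SE 0.40, edgeR adjusted p = 0.00354). miR-430c stood at 294, 211.7 and 175 CPM and then at 18.2, 51.9 and 44.8 CPM (-2.57, SE 0.77, edgeR adjusted p = 0.0416). The minor arms fell by smaller amounts, between 1.40 (miR-430j*) and 1.62 (miR-430c*) on the log2 scale, than the major arms, between 2.27 and 2.57, a difference between arms that was not tested. The 8 features are fewer measurements than their number says: counts of miR-430a-22* and miR-430i* differed by at most 2.9% in every library, and totals of miR-430b* and miR-430j* by 4.03%. The call of miR-430c was lost whichever DMSO library was left out (edgeR adjusted p up to 0.138), that of miR-430b without replicate 1 or 2 of 60 hpf (0.0824), that of miR-430c* without 36 hpf DMSO replicate 3 or 60 hpf DMSO replicates 2 or 3 (0.076), and that of miR-430j* without 60 hpf DMSO replicate 2 (0.052).

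In the miR-30 family, linked to muscle development in zebrafish and to kidney development in Xenopus, all 9 tested log2 fold changes were negative (median -0.40), and both arms of miR-30a were called. These calls are 22.2% of the tested features of the family, against 5.61% of all tested features called lower. miR-30a stood at 2580, 1671 and 1185 CPM and then at 326, 378 and 380 CPM. The libraries of 60 hpf were close together, those of 36 hpf spread more widely, and the groups were 3.12-fold apart at their closest (log2 fold change -2.33, SE 0.49, edgeR adjusted p = 0.0074). miR-30a* fell by 3.24 (SE 0.72, edgeR adjusted p = 0.00965). Both calls held with each DMSO library left out. The more abundant miR-30c (-0.72, SE 0.32) and miR-30e (-0.26, SE 0.36) did not pass the test.

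miR-130, miR-301 and miR-454 share a seed and are made from common clusters. Of 16 tested features 3 were called lower (18.8%, against 5.61% of all tested features), with a list median of -0.77. miR-301c stood at 50700, 38260 and 33220 CPM and then at 16370, 19900 and 21150 CPM. This was the most abundant feature among all 75 calls, and its lowest library of 36 hpf lay 1.57-fold above its highest of 60 hpf (log2 fold change -1.09, SE 0.26, edgeR adjusted p = 0.0154). miR-301b stood at 1771, 1541 and 1577 CPM and then at 592, 678 and 723 CPM (-1.29, SE 0.25, edgeR adjusted p = 0.00461), without overlap. miR-454b* stood at 440, 515 and 687 CPM and then at 134, 203.5 and 290.0 CPM (-1.39, SE 0.37, edgeR adjusted p = 0.0228). The most negative value of all 410 features, -4.22 for miR-454a, was not a call: its libraries of 36 hpf held 366, 13.6 and 1437 CPM and those of 60 hpf 12.6, 62.1 and 23.4 CPM. The call of miR-301c was lost without 60 hpf DMSO replicate 1 (0.0692) and that of miR-454b* without 36 hpf DMSO replicate 3 or 60 hpf DMSO replicates 1 or 2 (0.0781).

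In the list of miR-17-92 type clusters, which are linked to proliferation, 29 of 32 tested log2 fold changes were negative, with a median of -0.58. Called were 2 features, both lower. These are 6.25% of the list, close to the 5.61% of all tested features called lower, and with total count scaling there were 0 calls. miR-92b stood at 1628, 1754 and 2755 CPM and then at 256, 747 and 1024 CPM (-1.60, SE 0.47, edgeR adjusted p = 0.0366). It is in the list by its family number. Its hairpin was in none of the clusters of neighbouring hairpins described below. miR-18c* stood at 257, 300.8 and 275 CPM and then at 158, 159 and 154 CPM, the smallest called change (-0.82, SE 0.24, edgeR adjusted p = 0.0343). miR-20a had 1 library apart, 36 hpf DMSO replicate 3 at 306 CPM against 47260 and 61390 CPM in its replicates, and 29140 to 35680 CPM at 60 hpf. The call of miR-92b was lost in 4 and that of miR-18c* in 5 of the 6 fits that left out a DMSO library (up to 0.119 and 0.103). Both held without 36 hpf DMSO replicate 1, and miR-92b also without 60 hpf DMSO replicate 3.

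Muscle and heart miRNAs gave 1 lower call among 15 tested features, with a median of -0.64, a share of 6.67% close to the 5.61% of all tested features, and 2 with RLE or upper quartile scaling. It was miR-206-2*, the minor arm of a skeletal muscle miRNA, at 2739, 2674 and 2840 CPM and then at 1175, 987 and 1424 CPM. The replicates of 36 hpf were nearly equal and all 3 libraries of 60 hpf lay far below (log2 fold change -1.20, SE 0.31, edgeR adjusted p = 0.0208), and the call was lost without 60 hpf DMSO replicate 1 or 2 (0.076). The major arm miR-206 stood at 17020, 27740 and 38030 CPM and then at 40310, 33830 and 25530 CPM, with overlap (0.27, SE 0.48). miR-1 stood at 3080, 7309 and 8147 CPM and then at 13910, 11690 and 9817 CPM. It did not overlap between the ages and did not pass the test (0.93, SE 0.43, edgeR adjusted p = 0.167). miR-133b, whose hairpin lies next to that of miR-206-1, had a value of -1.17 (SE 0.41, edgeR adjusted p = 0.0686).

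Lists of blood, vessel, epidermis and axial patterning miRNAs gave no call. There were 0 calls among 4 erythroid (median log2 fold change 0.42), 11 leukocyte (-0.38), 9 endothelial (-0.06), 6 epidermal (-0.49), 12 miR-200 (-0.12) and 17 Hox cluster features (-0.51). In 11 lists together edgeR's quasi-likelihood test called 0 of 118 features, these 6 lists and the 5 named below, with 8 at an unadjusted p under 0.05, while limma-voom called 1 and DESeq2 12. With RLE or upper quartile scaling the Hox cluster list gave 1 lower call. The Hox cluster miRNA miR-10c stood at 49130, 52050 and 50220 CPM and then at 30730, 25870 and 41400 CPM, without overlap and without passing the test (-0.63, SE 0.26, edgeR adjusted p = 0.121). The epidermal miR-203a stood at 34820, 44760 and 51250 CPM and then at 29360, 34990 and 23110 CPM, with a slight overlap (-0.58, SE 0.26, edgeR adjusted p = 0.165). No call was made either among 20 features of miR-23, miR-24 and miR-27 (median -0.25), 11 of cartilage and mesenchyme (0.12), 15 of miR-15 and miR-16 (0.08), 7 of miR-29 (0.29) and 6 of miR-26 (0.40). Of 10 stress, p53 and hypoxia features (median 0.23), miR-210*, the minor arm of a hypoxia-induced miRNA, was called lower, at 4122, 4987 and 6237 CPM and then at 2966, 2369 and 2835 CPM (-0.91, SE 0.24, edgeR adjusted p = 0.0226). The call of miR-210* was lost in all fits that left out a DMSO library except that without 36 hpf DMSO replicate 1, where the log2 fold change was -1.20. The major arm miR-210 went from a mean of 4322 to 3040 CPM (-0.51) and was not called. At 36 hpf miR-210* was the more abundant arm, with a mean of 5115 CPM. The median of the miR-15 and miR-16, cartilage, endothelial, miR-29, pancreas and stress lists changed sign under 1 or more of the scaling alternatives.

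A further 84 tested features belong to no list, and 11 of them were called higher and 5 lower (13.1% and 5.95%, close to the 12.7% and 5.61% of all tested features). The miR-135 and miR-129 families gave 3 and 2 of the higher calls, while other members were not called. The most abundant miR-135 feature, miR-135b, went from a mean of 4659 to 6125 CPM (log2 fold change 0.39) and was not called. Neither were miR-135a (0.95) and the major arm miR-129 (0.03). The latter had means of only 4.36 and 4.41 CPM at 36 and 60 hpf, against 727 and 2468 CPM for the minor arm miR-129-2*. miR-135c had a mean of 132.1 ± 12.7 CPM at 36 hpf (SD, n = 3) and stood at 582, 705 and 576 CPM at 60 hpf, with little spread at either age (log2 fold change 2.23, SE 0.27, edgeR adjusted p = 0.000385). miR-135a* and miR-135c-2* were called as well, at 4.86 and 2.03. miR-129-2*, from a family enriched in brain, stood at 787, 684 and 709 CPM and then at 2154, 1982 and 3269 CPM (1.76, SE 0.30, edgeR adjusted p = 0.00246), and miR-129-1* rose by 1.93. All 5 of these calls held with each DMSO library left out. miR-135a* and miR-135c-2* rested on 4 and 15 counts over the 3 libraries of 36 hpf.

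For the other calls outside the lists no role is given here. miR-723 stood at 242, 255 and 356 CPM and then at 1997, 1026 and 1048 CPM (2.25, SE 0.44, edgeR adjusted p = 0.00471), and its arm miR-723* went from 0, 2 and 4 to 61, 42 and 38 counts. miR-2188 stood at 1054, 1438 and 1664 CPM and then at 3324, 3483 and 3168 CPM (1.26, SE 0.30, edgeR adjusted p = 0.0138). The groups of neither overlapped. miR-2187, miR-734 and miR-459 were the other higher calls. miR-459 had 2 counts in all at 36 hpf and 49 at 60 hpf, a ratio of 14.7 per miRNA count (95% exact interval 3.87 to 125.1). Lower calls were miR-2190, miR-2185*, miR-1388, miR-202* and miR-2186*. miR-2185* stood at 89.0, 74.6 and 54.3 CPM and then at 11.7, 11.4 and 12.3 CPM, nearly equal in the 3 libraries of 60 hpf (-2.61, SE 0.47, edgeR adjusted p = 0.00374). The calls of miR-723, miR-723*, miR-2190, miR-2185* and miR-1388 held with each DMSO library left out, miR-2188 was lost without 36 hpf DMSO replicate 1 or 2 (up to 0.115), and miR-202* without 60 hpf DMSO replicate 1 or 2 (0.067). miR-459 was lost without 36 hpf DMSO replicate 2 or 3 (0.108). Its log2 fold change of 3.60 was 4.28 without replicate 1 and 3.04 without replicate 2 of 36 hpf. miR-2187, miR-734 and miR-2186* were lost in 5 of 6 fits (0.163, 0.131 and 0.11), the log2 fold change of miR-734, 2.68, was 3.94 without 36 hpf DMSO replicate 2 and 1.94 without replicate 3, and that of miR-2186*, -2.86, was -2.22 without 60 hpf DMSO replicate 1.

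With alike hairpin copies counted once, the weight of these groups in a library was small for let-7 and miR-430 and larger for abundant families. let-7 took 0.0623%, 0.0635% and 0.0874% of the miRNA counts at 36 hpf and 0.38%, 0.33% and 0.275% at 60 hpf. miR-430 went from 0.268%, 0.225% and 0.274% to 0.0724%, 0.0739% and 0.083%. Neither overlapped between the ages, and the share of let-7 was below that of miR-430 in each library of 36 hpf and above it in each library of 60 hpf. At 60 hpf this order depends on counting alike hairpin copies once. Where copies that were not identical were summed, let-7 took 0.838%, 0.733% and 0.519% at 60 hpf and miR-430 0.832%, 0.92% and 0.969%, so that let-7 was the lower in replicates 2 and 3. At 36 hpf let-7 then took 0.109% to 0.129% and miR-430 3.19% to 3.82%. Sensory and retina miRNAs went from 5.01% ± 0.204 to 8.91% ± 1.35, miR-125, miR-99 and miR-100 from 2.24% ± 0.166 to 4.65% ± 1.48, and neuronal miRNAs from 3.49% ± 0.34 to 5.04% ± 0.465 (SD, n = 3 each). Most of the gain of the sensory and retina list lay in miR-181. Summed mean levels of the list went from 54580 to 90080 CPM, and those of its miR-181 features from 14810 to 39680 CPM. The miR-130, miR-301 and miR-454 group went from 14.9% ± 0.929 to 11.2% ± 1.45. The miR-17-92 type clusters, the largest group, took 21.5% ± 5.98 and 18.2% ± 3.09, and minor arms together 7.56% ± 0.862 and 7.12% ± 0.132, both with overlap. In 16 of 27 shares compared the 2 ages did not overlap, 11 being higher and 5 lower at 60 hpf. Each of these had a two-sided exact permutation p of 0.1, the smallest possible, and 0.169 with Benjamini-Hochberg adjustment over the 27.

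**Figure D4:**
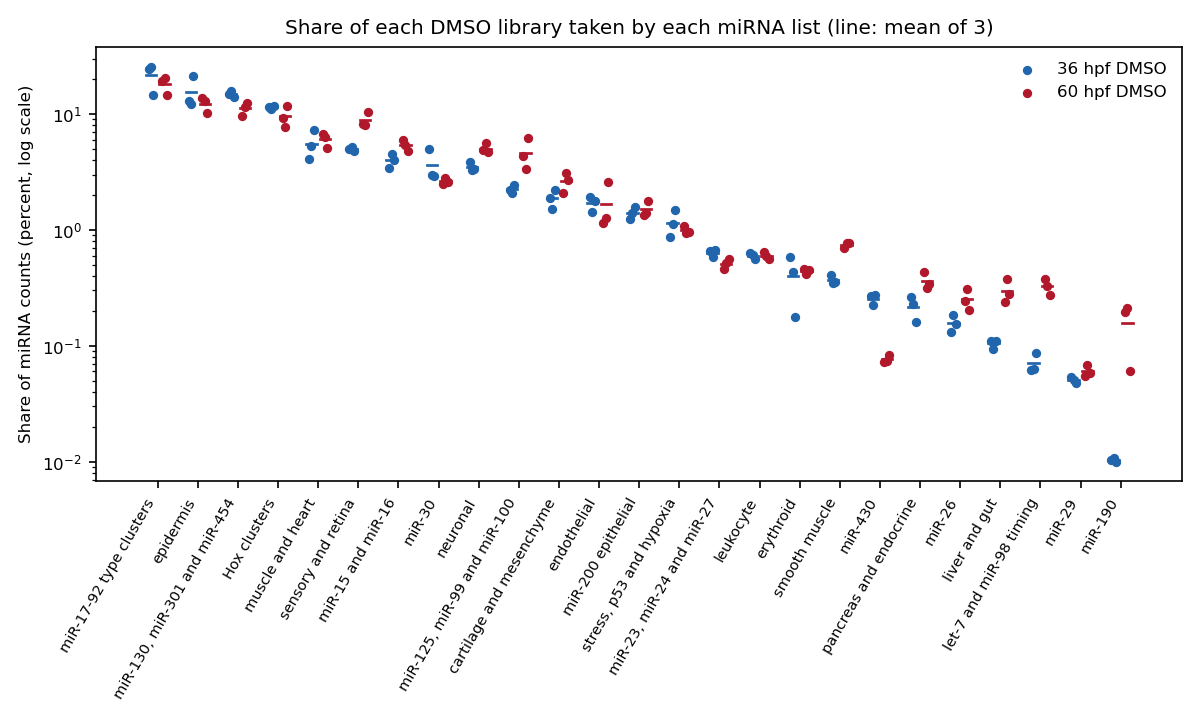
Share of the miRNA counts of each DMSO library (percent, log scale) taken by each of 25 lists, with 36 hpf in blue, 60 hpf in red and a line at the mean of 3 libraries. let-7, miR-190 and the liver and gut list lie higher at 60 hpf and miR-430 lower, while the abundant miR-17-92 type clusters and epidermal miRNAs overlap.

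Both arms of a hairpin were compared where both were tested, in 210 pairs of a major and a minor arm, a major arm with several hairpins being counted in several pairs. In 163 pairs both arms had log2 fold changes of the same sign, and across pairs they correlated at r = 0.72, given as a description since pairs share libraries and major arms. In 17 pairs both arms were called, always in the same direction, in 26 only the major arm and in 17 only the minor arm. The minor arm was the more abundant over the 6 DMSO libraries in 21 pairs, and in 14 pairs the order of the arms changed between 36 and 60 hpf.

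Neighbouring hairpins were found in the RefSeq gene table of the assembly GRCz12tu, used for names and order only, in which 329 of 352 hairpins were matched. Hairpins within 10 kb of each other formed 50 clusters, 35 of which held more than 1 family. Of these 35, 11 held a called feature, and 0 held calls of both directions. Some of the 11 held a single call and could not hold both directions, and others counted the same let-7a, let-7c or miR-125b calls again. No conclusion is drawn from this 0. The clusters below were picked for their calls, and over all tested features 12.7% were called higher and 5.61% lower. In the cluster of miR-183, miR-96 and miR-182 4 of 6 tested arms were called higher, in that of miR-212 and miR-132 3 of 4, and in that of miR-192 and miR-194a 2 of 2. In the cluster of miR-100, let-7a and miR-125b 3 of 6 arms were called higher, and in that of miR-130c, miR-301b, miR-454b and miR-130b 2 of 8 lower. Mature miRNAs made from several loci count in each of their clusters.

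The same ages were compared in embryos exposed to TCDD, in the other 6 libraries and within the same fit. Both comparisons set different libraries against each other but share the filter, the scaling and the estimate of spread. Their calls are therefore not independent. In TCDD embryos 88 of 410 features (21.5%) were called, 52 higher (12.7%) and 36 lower (8.78%). Of the 52 features called higher in DMSO embryos, 51 had a positive log2 fold change in TCDD embryos and 37 were called higher there too. All 23 features called lower in DMSO embryos had a negative value in TCDD embryos and 18 were called lower. The libraries of the 2 ages did not overlap in TCDD embryos for 45 of the 52 and 20 of the 23, against 40.5% of all tested features. Across the 410 features both log2 fold changes correlated at r = 0.77. let-7 gave 12 higher calls in TCDD embryos and a median of 1.48, miR-430 8 lower calls and -1.93, neuronal miRNAs 12 higher and 4 lower calls and 0.97, and sensory and retina miRNAs 6 higher calls and 0.85. Muscle and heart miRNAs had 4 lower calls there and a median of -0.56, beside 1 and -0.64 in DMSO embryos.

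**Figure D5:**
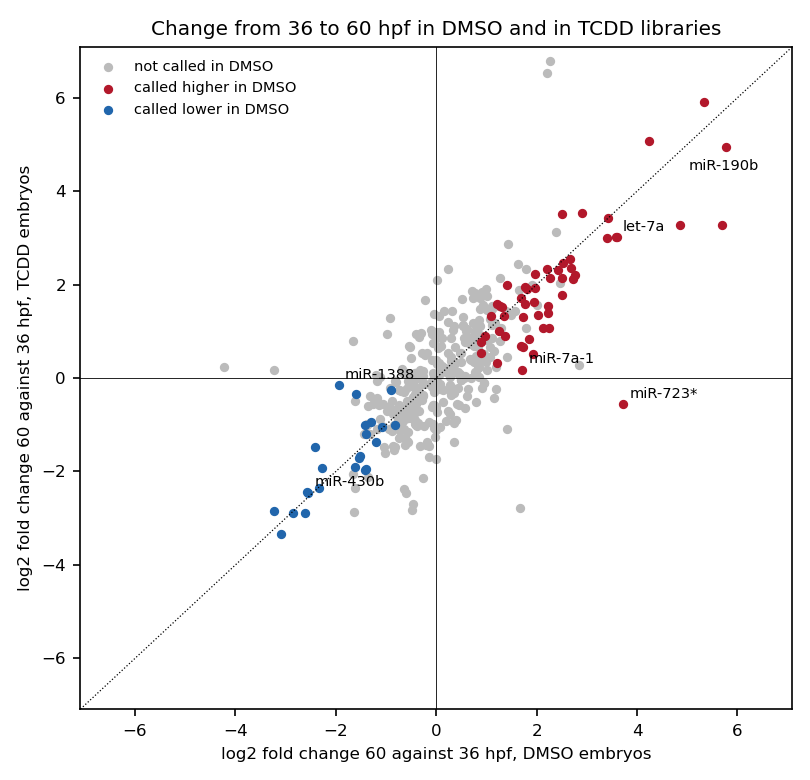
Log2 fold change from 36 to 60 hpf in TCDD embryos against that in DMSO embryos, 1 point for each of 410 tested features, with calls of the DMSO comparison in red and blue and a dotted line of equal change. Most called points lie near the line, and miR-723* is the 1 red point below 0 on the vertical axis.

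The difference between both developmental changes was tested as an interaction. edgeR's quasi-likelihood test called 0 of 410 features, with 19 at an unadjusted p under 0.05 and a smallest adjusted p of 0.388. DESeq2 called 6 and edgeR's likelihood ratio test 1. Among the 75 calls, the features with the 4 largest gaps were miR-723*, with log2 fold changes of 3.72 in DMSO and -0.56 in TCDD embryos, let-7b, with 5.69 and 3.29, miR-1388, with -1.94 and -0.16, and miR-135a*, with 4.86 and 3.28. None of these 4 differences passed the quasi-likelihood test, which does not show that the changes were equal.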

How the data were processed

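Small RNA of whole zebrafish embryos was sequenced on a SOLiD V3 instrument after library preparation with the small RNA expression kit, per the labels' protocols. Each library has a deposited table of whole-number counts that lists features with 1 count or more, and features absent from a table were set to 0. The submitters' processing notes name edgeR, with no version. No coordinates or sequences are printed, since the aligner, miRNA annotation, counting rule and build were not given in the sources used here.

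The tables held 699 miRNA rows. Rows of the same name and arm were counted once, by the most abundant copy, where a copy's total reached 80% of the highest, and copies with other totals stayed separate features (464 in all, against 412 with 1 per name and arm). Another 1797 rows with Ensembl transcript identifiers, 1.34% to 5.35% of the counts of a DMSO library, stayed out of library sizes and tests.

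edgeR 4.0.16 in R 4.3.3 was run on these counts (filterByExpr with a minimum count of 10 and total of 15, TMM factors, glmQLFit with robust=TRUE, glmQLFTest). The fit had 4 group means and used all 12 libraries, so that TCDD libraries share in the estimate of spread. Contrasts were 60 against 36 hpf in DMSO embryos, the same in TCDD embryos, and their difference. Adjusted p is Benjamini-Hochberg over the 410 features tested, with calls made under 0.05. Levels are CPM scaled by TMM factors, SE is the log2 fold change over the square root of F, and shares are percent of miRNA counts. Intervals cover counting error only. On simulated counts of 409 features the test of the DMSO contrast called 14.9%, 76.9% and 85.3% of features changed by 1, 2 and 3 on the log2 scale, and 1.44% of unchanged features. Unchanged were 209 of the 409. The counts were drawn from a negative binomial model with the spread of the fit itself, without added outlying libraries. The rates therefore describe the test under its own model only.

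The members and lists were chosen with earlier results of these data known. Lists hold both arms of miRNAs with given family numbers. Named by rule were up to 15 calls per direction of largest change. They had no overlap between ages and a mean of 100 CPM at either age. With them came every call and the 2 most abundant members of each list, and the 10 most abundant features of each age. The rule also took the other arms of the calls of largest change. Not every uncalled feature selected by this rule is described above, so the text dwells more on calls. Further calls, tissue markers and members of lists were named after their values were seen. Alternatives were other scalings, filters, tests (DESeq2 1.42.0, limma-voom of limma 3.58.1, edgeR's likelihood ratio test), samples and hairpin rules, a replicate block, and each DMSO library left out.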

Additional observations from a re-analysis of the deposited data

Results flagged for a closer look

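Rows with Ensembl transcript identifiers, which no comparison above uses, took 3.32% ± 1.76 of all counts in the 36 hpf DMSO libraries and 1.47% ± 0.156 in the 60 hpf DMSO libraries (SD, n = 3 each). This is a signal outside the miRNA rows, and it was higher in all 3 libraries of 36 hpf, at 5.35%, 2.38% and 2.24%, than in those of 60 hpf, at 1.42%, 1.65% and 1.34% (two-sided exact permutation p = 0.1, the smallest possible). The highest share was that of the shallowest DMSO library, 36 hpf replicate 1. The identifiers were not matched to genes here.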

How the results depend on the processing

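Of the 64 calls among features named by rule, 0 changed direction under the alternatives in which they could be followed, which was 48 of them under the other rules for copies, 61 under the stricter filter, 63 in the fit of DMSO libraries alone and all 64 under the rest; they were not followed with every row a feature. The 75 calls became 120 with DESeq2 and 261 with every row of the tables as a feature. Lower calls were 5.61% of tested features here, 12.9% with DESeq2 and 24.3% with every row a feature. DESeq2 called all 75, limma-voom 72 and the fit of the 6 DMSO libraries alone 62 of them. With 1 feature per name and arm, an alternative chosen after seeing the data, there were 66 calls. Without both TCDD libraries numbered 3, there were 77. Leaving out each DMSO library in turn gave 53 to 63 calls, of which 34 to 45 were higher (8.04% to 10.8% of tested features) and 14 to 26 lower (3.37% to 6.16%); 40 calls held in all 6 of these fits, 27 in some and 8 in none. Fits that leave out a library rest on fewer samples. In TCDD embryos the 88 calls became 136 with DESeq2 and 275 with every row as a feature. The difference between both developmental changes had 0 calls, 6 with DESeq2 and 1 with edgeR's likelihood ratio test. With other copies summed or every row a feature, differences in share between ages became 0.58 in place of 0.257 percentage points for let-7, -2.67 in place of -0.179 for miR-430, 2.39 in place of 1.55 for neuronal miRNAs, 0.286 in place of 0.378 for smooth muscle and 0.16 in place of 0.0946 for miR-26. The difference of the 10 most abundant features became -4.31 in place of -8.23 with other copies summed. The cause of these changes was not tested.

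Same-numbered DMSO libraries did not deviate together (r of deviations -0.23, 0.02 and 0.02), so the numbers are not taken to pair the DMSO samples. In TCDD libraries the same r was 0.25, 0.26 and 0.42, while differently numbered TCDD libraries ran from -0.29 to 0.06. Whether the numbers mark pairs or batches was not tested, and the main fit holds no term for them. A replicate block gave 15 lower calls (3.66%) in place of 23, and 54 of the 75 calls held. Low counts limit 13 calls that had 30 or fewer counts at 1 age.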

Other observations

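Some abundant miRNAs differed more between replicates than between ages. Among features with a mean of 1000 CPM or more over the 6 DMSO libraries, 15 spread more than 5-fold within a group of 3. Of these 1, miR-219-3*, was called, and of the 91 others 17, beside 18.3% of all tested features. A wide spread within a group itself makes a call less likely, so no conclusion is drawn from these counts. The median ratio of the highest to the lowest library was 1.63 at 36 hpf and 1.46 at 60 hpf. miR-20a held 47260, 61390 and 306 CPM in the 3 libraries of 36 hpf, and miR-18b of the same kind of cluster ranged from 156 to 5627 CPM, both lowest in replicate 3. The vessel miRNA miR-221 was lowest in replicate 2 at both ages, at 166 CPM against 7089 and 8992 CPM at 36 hpf and at 281 CPM against 778 and 11660 CPM at 60 hpf. miR-126a, which keeps vessels intact in zebrafish, ranged from 344 to 3056 CPM at 36 hpf.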
